A study of Mus musculus with 92 samples.

Results

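Synthesis of thymidylate, deoxynucleotides and pyrimidines was followed through 9 genes taken from a list of named enzymes: Tyms, Tk1, Dut, Rrm1, Rrm2, Umps, Cad, Dhodh and Ctps. The list names enzymes and its rule uses no measured value, but it was chosen with earlier results of these data known. All 9 were found among the 56953 gene IDs of the tables, and all 9 passed the low-count filter in every readout. The cells were mouse embryonic stem cells of the B6 line, grown with serum, LIF and the inhibitors PD0325901 and CHIR99021. They carried dTAG, a degron that marks its fusion partner for breakdown once the compound dTAG-13 is added. In the first line it was fused to GABPA, a DNA-binding ETS protein (genotype GabpadTAG/dTAG), in the others to its partner subunit GABPB1 (Gabpb1dTAG/dTAG), or to GABPB1 and the related subunit GABPB2 (Gabpb1/b2dTAG/dTAG). RNA-seq compared 500 nM dTAG-13 with the solvent DMSO at 12 h in each of these 3 lines, in 6 groups and 12 libraries. SLAM-seq, in which newly made RNA takes up 4-thiouridine and is recognised by T-to-C conversions in the reads, was run on GabpadTAG/dTAG cells after 1, 2, 4 and 12 h, in 7 groups and 14 libraries. A single DMSO group, titled for 2 to 4 h and labelled as 2 h of treatment, served both the 2 h and the 4 h comparison. Every control therefore also carried the tagged alleles, no untagged line was analysed here, and the labels do not say how many clones each line represents.

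DNA synthesis needs balanced pools of deoxynucleotides, and proliferating stem cells draw on both new synthesis and salvage to fill them. Pyrimidine rings are built by CAD, DHODH and UMPS up to UMP, from which CTP is made by CTP synthase. Ribonucleotide reductase converts ribonucleotides to deoxyribonucleotides, and thymidylate synthase, fed by dUTPase and a folate cofactor, makes the thymidine nucleotide that is particular to DNA, while thymidine kinase recovers it from thymidine.

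Every group had 2 libraries, called biological duplicates in the design text, so p-values rest on a spread estimated over all groups of an assay. RNA-seq libraries held 15957991 to 32091613 counts. SLAM-seq libraries held 11477034 to 30690961 reads, of which 936622 to 4248509 were converted. The converted share was 5.06% to 6.08% in the 4 libraries of the 1 h time point and 8.58% to 14.1% in the other 10, and the sources used here do not give the length of labelling. The 12 embryonic stem cell markers summed to 6995 to 9114 CPM (counts scaled to a common library size) in RNA-seq, the 9 fibroblast markers to 6.11 to 13.5 and the 8 markers of differentiated lineages to 6.98 to 30.9. The degron acts on protein, so RNA of a tagged gene does not check its loss, and Gabpa RNA was in fact higher with dTAG-13 in the GABPA line (31.5 and 32.1 TPM, a unit that corrects for transcript length and depth) than with DMSO (20.1 and 20.5).

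ETS proteins such as GABPA bind DNA around the letters GGAA. The forms GGAAG and CCGGAAG were searched here, and the stretches just upstream of the start sites are shown for the genes that changed most. The reference table of RefSeq promoters (build GRCm38.p6, 250 bases before to 50 after each start) held a window for 8 of the 9 genes, all but Dhodh, with 9 windows because Ctps has 2. The 120 bases before the start of each gene, read 5′ to 3′ on the strand of the gene, are given with GGAAG or its reverse CTTCC in capitals, for Tyms (chr5:30073626-30073745, minus strand), Umps (chr16:33967039-33967158, minus strand), Tk1 (chr11:117826015-117826134, minus strand), Rrm2 (chr12:24708134-24708253, plus strand) and Cad (chr5:31054660-31054779, plus strand).
Tyms: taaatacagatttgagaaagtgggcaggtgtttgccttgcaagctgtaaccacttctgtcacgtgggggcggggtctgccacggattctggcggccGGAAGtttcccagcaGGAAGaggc
Umps: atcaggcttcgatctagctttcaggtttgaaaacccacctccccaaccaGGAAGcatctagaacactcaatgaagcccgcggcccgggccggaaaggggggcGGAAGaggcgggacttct
Tk1: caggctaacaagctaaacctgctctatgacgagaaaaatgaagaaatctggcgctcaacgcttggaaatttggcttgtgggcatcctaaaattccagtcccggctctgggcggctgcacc
Rrm2: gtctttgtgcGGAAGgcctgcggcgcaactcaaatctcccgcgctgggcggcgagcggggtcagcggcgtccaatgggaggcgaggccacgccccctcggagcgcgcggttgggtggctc
Cad: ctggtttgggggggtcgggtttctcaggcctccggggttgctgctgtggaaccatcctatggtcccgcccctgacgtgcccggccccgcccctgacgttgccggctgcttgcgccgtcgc
The longer letters CCGGAAG, searched on both strands over the whole 300-base window, were found in 8.86% of 32851 windows and, among these genes, in Tyms alone, from 26 to 20 bases before the start. The shorter letters GGAAG, which lie within CCGGAAG, were in 71.4% of all windows and in 7 of the 8 genes, with Cad the exception. Umps held GGAAG 225, 71 and 18 bases before the start, Rrm2 at 110 bases and Tk1 at 234 bases, outside the stretch shown. The bare GGAA was neither searched nor marked. It also occurs in lower case in the stretches of Cad, Tk1 and Umps, in Umps after CC. The E2F letters TTTCCCGC and TTTGGCGC were in 1.07% and 0.51% of all windows and in 0 of the 8 genes, and the NRF1 core GCATGCG was in 3.58% and, among the genes, in Ctps. These matches describe letters in a window and are neither sites nor causes.

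Before treatment, in DMSO libraries of the GABPA line, the 9 RNAs spanned a wide range of levels per length. Rrm2 stood highest with a mean of 319 TPM, followed by Dut at 239, Tk1 at 109, Ctps at 96.7, Rrm1 at 86.8, Cad at 85.0, Umps at 71.0, Dhodh at 70.6 and Tyms at 37.0. Libraries of neighbours in this order did not overlap except for Rrm1 with Cad and Umps with Dhodh. After 12 h of dTAG-13, Cad had moved to the third place at 160 TPM, and Umps (10.4) and Tyms (9.26) formed the bottom of the order.

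In the GABPA line, 12 h of dTAG-13 moved the thymidylate and pyrimidine synthesis genes very unequally. By the quasi-likelihood test of edgeR, with p-values adjusted after Benjamini and Hochberg over 16396 genes and calls at an adjusted p under 0.05, 5 of the 9 fell at 12 h (Umps, Tyms, Tk1, Dhodh and Rrm2), 1 rose (Cad) and 3 were not called (Dut, Rrm1 and Ctps). Over all genes tested, 46.5% were called, 21.9% lower and 24.5% higher. The median log2 change of the 9 genes was -0.15, beside 0.06 for all genes. In bulk RNA, fewer cells of a type and less RNA per cell cannot be told apart.

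Among the thymidylate genes, Tyms (ENSMUSG00000025747.13, mm39 chr5:30263200-30278615, minus strand), thymidylate synthase itself, fell most. Its level was 83.5 and 85.1 CPM with DMSO and 21.7 and 21.2 CPM with dTAG-13. The treated libraries lay close together and far below the controls, a log2 change of -1.98 ± 0.078 (SE, adjusted p = 2.76e-12) or 3.94-fold. A processed copy, Tyms-ps, exists, and the sources used here do not say how reads shared with it were assigned. Tk1 (chr11:117706352-117716918, minus strand), the cytosolic thymidine kinase of the salvage route, went from 99.1 and 104 CPM to 59.4 and 60.9 CPM. That fall of 0.76 ± 0.070 on the log2 scale (adjusted p = 1.34e-07) was smaller than that of Tyms, again with no overlap. Tk1 overlaps Afmid and Gm20708 on the other strand, and the sources used here do not say how strand was handled. Dut (chr2:125089110-125100528, plus strand), the dUTPase that supplies dUMP and keeps uracil out of DNA, was at 243 and 237 CPM with DMSO and 227 and 227 CPM with dTAG-13. Its groups did not overlap, but the difference of -0.08 ± 0.070 did not pass the test (adjusted p = 0.377).

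The subunits of ribonucleotide reductase moved little in RNA-seq. Rrm1 (chr7:102090902-102118978, plus strand), the large catalytic subunit, was at 255 and 253 CPM with DMSO and 276 and 279 CPM with dTAG-13. The difference of 0.13 ± 0.058 was not called (adjusted p = 0.0815), although with genes of an average log2 CPM of at least 3 only it was (0.19, adjusted p = 0.00682). Rrm2 (chr12:24758240-24764145, plus strand), the radical-bearing small subunit whose level follows S phase, was at 493 and 475 CPM with DMSO and 437 and 438 CPM with dTAG-13. Its fall of 0.15 ± 0.053 (adjusted p = 0.0317) is the least secure of the calls. It was lost without the low-count filter (adjusted p = 0.133), with the stricter filter (0.142), and without DMSO replicate 1 (0.157), dTAG replicate 1 (0.0803) or dTAG replicate 2 (0.0708).

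The steps of pyrimidine ring synthesis split in direction. Umps (ENSMUSG00000022814.7, chr16:33775152-33787408, minus strand), which turns orotate into UMP, went from 187 and 173 CPM to 27.5 and 26.2 CPM. This was the deepest fall of the 9 genes, -2.74 ± 0.078 (adjusted p = 7.73e-14) or 6.69-fold, with the treated libraries far below both controls. Cad (chr5:31212124-31235823, plus strand), the enzyme of the opening steps of the pathway, went the other way, from 418 and 497 CPM to 906 and 844 CPM. It rose by 0.94 ± 0.073 (adjusted p = 1.37e-08), a 1.91-fold higher level, and the treated libraries lay well above both controls. Dhodh (chr8:110317975-110335305, minus strand), the mitochondrial enzyme between CAD and UMPS, was at 96.1 and 101 CPM with DMSO against 71.9 and 75.4 CPM with dTAG-13, a fall with a log2 change of -0.42 ± 0.087 (adjusted p = 7.71e-04). Ctps (chr4:120397065-120427473, minus strand), which makes CTP from UTP, was at 191 and 180 CPM with DMSO and 180 and 194 CPM with dTAG-13. Its groups overlapped, with a difference of 0.01 ± 0.059 (adjusted p = 0.877). The summed level of the 9 genes was 2066 and 2104 CPM with DMSO and 2208 and 2166 CPM with dTAG-13. CPM does not correct for transcript length, and Cad (418 and 497 CPM but a mean of 85.0 TPM with DMSO) weighs heavily in this sum. The sum is therefore no measure of the number of transcripts.

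**Figure D1:**
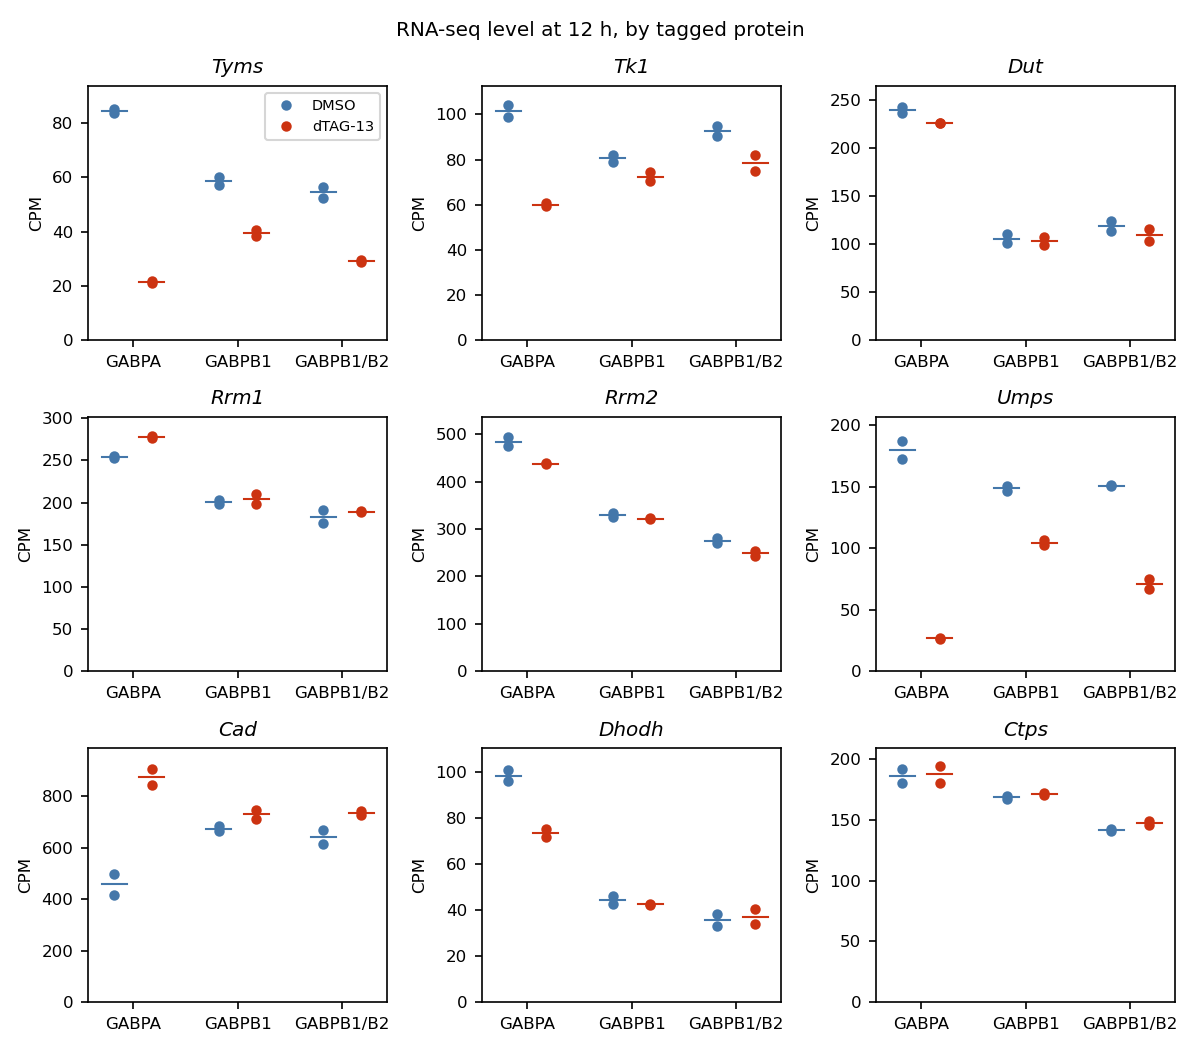
RNA-seq level of each gene in CPM (y axis, from 0) in the 3 tagged lines (x axis), with 1 point per library, DMSO in blue, dTAG-13 in red and short lines for group means. Umps and Tyms drop furthest in the GABPA line, Cad rises there, and the DMSO levels of Dut and Dhodh are lower in both other lines.

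In the GABPB1 and GABPB1/B2 lines fewer of the 9 genes were called. With the GABPB1 degron 2 of 9 fell and 0 rose, where 6.75% of all genes were called (5.46% lower and 1.28% higher). DESeq2 also called 0 higher, and 0 were higher at an unadjusted p under 0.05. With the degron on both subunits 3 of 9 fell and 0 rose, where 12.8% were called (9.26% lower and 3.53% higher). There, DESeq2 called 1 higher and 1 was higher at an unadjusted p under 0.05, Cad in both cases.

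Tyms and Umps were the genes called in all 3 lines. In the GABPB1 line Tyms was at 57.0 and 60.0 CPM with DMSO and 38.3 and 40.6 CPM with dTAG-13, a fall of 0.57 ± 0.069 (adjusted p = 6.42e-05). In the GABPB1/B2 line it was at 52.5 and 56.4 CPM against 29.0 and 29.7 CPM, a fall of 0.89 ± 0.075 (adjusted p = 2.40e-07). Umps was at 151 and 146 CPM against 102 and 107 CPM in the GABPB1 line, a fall of 0.50 ± 0.067 (adjusted p = 1.48e-04). It was at 151 and 151 CPM against 66.7 and 75.3 CPM in the GABPB1/B2 line, a fall of 1.09 ± 0.070 (adjusted p = 1.07e-08). Treated and control libraries were apart in all of these comparisons, and both genes lay lowest in the treated GABPA line.

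Tk1 was at 94.7 and 90.4 CPM with DMSO and 74.8 and 82.1 CPM with dTAG-13 in the GABPB1/B2 line. The fall of 0.24 ± 0.068 (adjusted p = 0.0273) was lost without the low-count filter (adjusted p = 0.0626), in a fit of those libraries alone (0.124), and without DMSO replicate 1 (0.0976) or dTAG replicate 1 (0.299). In the GABPB1 line Tk1 was at 79.1 and 82.3 CPM against 70.4 and 74.4 CPM, a difference of -0.16 ± 0.067 that was not called (adjusted p = 0.201). Cad was at 683 and 666 CPM against 748 and 711 CPM in the GABPB1 line (0.11 ± 0.071, adjusted p = 0.428) and at 668 and 614 CPM against 741 and 726 CPM in the GABPB1/B2 line (0.20 ± 0.072, adjusted p = 0.0913). Those groups did not overlap in either line. In a fit of the GABPB1 line's libraries alone, both Tk1 (adjusted p = 0.0268) and Cad (0.0108) were called. Rrm2 differed by -0.15 ± 0.053 in the GABPB1/B2 line (adjusted p = 0.0838, but 0.0486, a call, with the stricter filter) and by -0.04 ± 0.052 in the GABPB1 line (0.770). The lowest adjusted p of any other member in these lines was 0.363, for Dut in the GABPB1/B2 line.

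**Figure D2:**
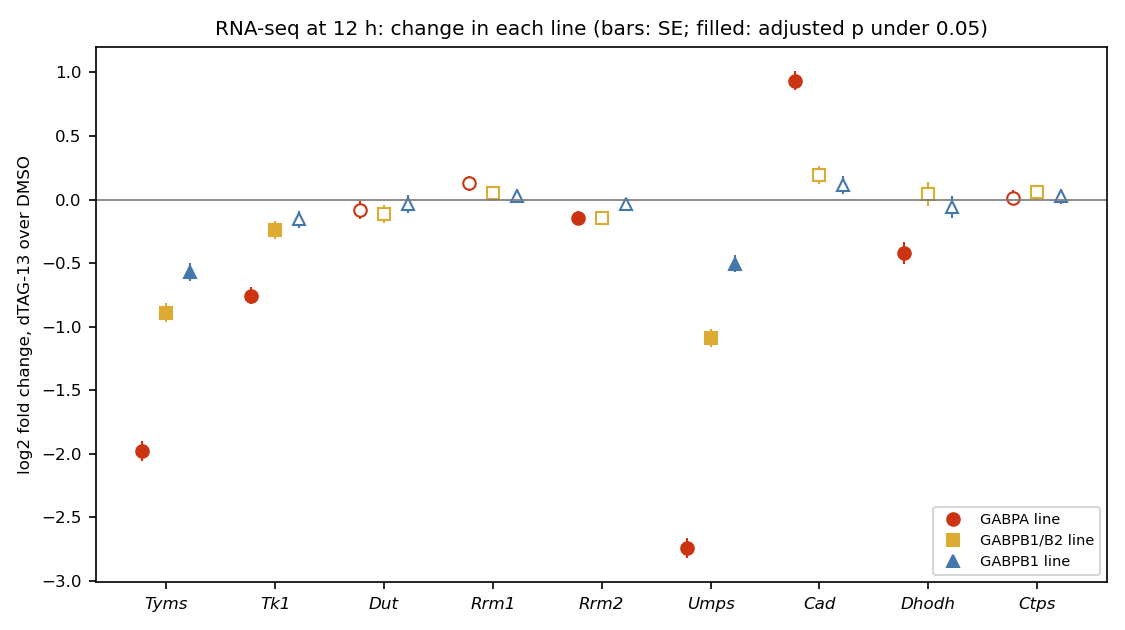
Log2 fold change at 12 h, dTAG-13 over DMSO (y axis), for each gene (x axis) in the GABPA, GABPB1/B2 and GABPB1 lines, with bars for the SE and filled symbols for an adjusted p under 0.05. Tyms and Umps fall in every line, least with GABPB1 and most with GABPA (-1.98 and -2.74), and Cad stands clearly above 0 in the GABPA line (0.94).

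The response in the GABPA line was larger than in the other lines for 5 of the 9 genes when the difference itself was tested. These 2 contrasts share the GABPA libraries and are given side by side. Tyms differed by -1.41 ± 0.104 from its response in the GABPB1 line (adjusted p = 2.93e-08) and by -1.09 ± 0.108 from that in the GABPB1/B2 line (1.75e-06). Umps differed by -2.24 ± 0.102 and -1.65 ± 0.104 (adjusted p = 1.35e-10 and 1.98e-08), and Tk1 by -0.60 ± 0.097 and -0.52 ± 0.098 (1.79e-04 and 0.00107). The rise of Cad was likewise larger, by 0.82 ± 0.102 and 0.74 ± 0.102 (adjusted p = 1.13e-05 and 5.32e-05). Dhodh differed by -0.36 ± 0.124 (adjusted p = 0.0421) and -0.46 ± 0.129 (0.0155). The Dhodh difference from the GABPB1 line was lost on leaving out any of 7 of the 8 libraries (adjusted p up to 0.132), and that from the GABPB1/B2 line on leaving out GABPA DMSO replicate 2 (0.0603), GABPA dTAG replicate 1 (0.0544) or GABPB1/B2 dTAG replicate 2 (0.0718). Over all genes, 25.7% were called in the contrast with GABPB1 (13.3% lower and 12.5% higher) and 20.8% in that with GABPB1/B2 (10.7% lower and 10.1% higher). Rrm1, Rrm2, Dut and Ctps were called in neither.

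The lines already differed without dTAG-13, so a change in each line starts from another level. Against the GABPA line, by the edgeR test on counts, 8 of the 9 genes were lower in DMSO libraries of the GABPB1 line. The remaining 1, Cad, was higher. Across all genes 61.2% were called in this contrast (31.5% lower and 29.7% higher). In the GABPB1/B2 line 7 were lower and Cad was again higher, where 62% of genes were called (30.4% lower and 31.6% higher). The largest of these differences were in genes that responded little or moderately to dTAG-13. Dhodh was at 42.6 and 46.2 CPM in the GABPB1 line and 38.4 and 33.2 CPM in the GABPB1/B2 line, beside 96.1 and 101 CPM in the GABPA line (-1.15 ± 0.087 and -1.45 ± 0.090). Dut was at 101 and 110 CPM and at 124 and 114 CPM, beside 243 and 237 CPM (-1.18 ± 0.071 and -1.01 ± 0.071). For both genes the CPM of the GABPA line lay well above that of either other line. The direction for some genes depended on the unit. Mean TPM in DMSO libraries of the GABPA, GABPB1 and GABPB1/B2 lines was 96.7, 105 and 93.0 for Ctps. It was 71.0, 70.1 and 75.2 for Umps and 109, 106 and 125 for Tk1. Dut differed less in TPM, at 239, 172 and 207. Rrm1, Rrm2, Tyms, Dhodh and Cad kept their direction in both lines. Rrm2 was lower by 0.55 ± 0.053 and 0.81 ± 0.053 on the log2 scale, Tyms by 0.53 ± 0.068 and 0.63 ± 0.070, and Cad was higher by 0.56 ± 0.072 and 0.49 ± 0.072. The call of Ctps in the GABPB1 line (-0.14 ± 0.058, adjusted p = 0.0450) was lost in DESeq2 (0.0646) and with DESeq2 size factors (0.0552). It was also lost without the low-count filter (0.552), with the stricter filter (0.145), in a fit of those libraries alone (0.0549) and with a replicate block (0.0534). Leaving out GABPA DMSO replicate 1, GABPB1 DMSO replicate 1 or replicate 2, which also lost it, gave log2 differences of -0.11, -0.10 and -0.12. The call of Umps in the GABPB1/B2 line (-0.25 ± 0.067) was lost with the stricter filter (0.0642). The lines were not compared with an untagged line here, so effects of the tag and of the clone cannot be told apart.

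Newly made RNA, read as converted SLAM-seq reads in the GABPA line, showed which genes were called lower soon after dTAG-13. At 1 h 1 of the 9 genes fell, Umps, and 0 rose. At 2 h 2 fell, Umps and Tyms, and 0 rose. At 4 h 1 fell, Umps, and 0 rose, and at 12 h 5 fell and 1 rose. Among all 15887 genes tested, 1.78% were called at 1 h (1.72% lower, 0.0567% higher), 3.35% at 2 h (3.21% lower, 0.145% higher), 4.02% at 4 h (3.91% lower, 0.113% higher) and 30.6% at 12 h (18.3% lower, 12.3% higher). DESeq2 also called 0 higher at 1, 2 and 4 h, and at an unadjusted p under 0.05 there were 1, 1 and 0. The 2 h and 4 h values share their controls and stand side by side.

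Umps fell at every time point. At 1 h its converted reads were 208 and 174 CPM with DMSO and 68.3 and 110 CPM with dTAG-13, a fall of 1.10 ± 0.224 (adjusted p = 0.00744), although without DMSO replicate 1 or without dTAG replicate 1 it was not called (0.105 and 0.282). At 2 h it was at 66.2 and 97.7 CPM and at 4 h at 54.3 and 76.1 CPM, beside 183 and 201 CPM in the shared DMSO group. These are falls of 1.23 ± 0.211 (adjusted p = 7.83e-04) and 1.54 ± 0.221 (6.87e-05). At 12 h it was at 21.9 and 17.6 CPM against 340 and 317 CPM, a fall of 4.02 ± 0.233 (adjusted p = 7.78e-12). At no time point did a treated library reach the level of a control.

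Tyms was at 95.9 and 115 CPM with DMSO and 68.3 and 65.2 CPM with dTAG-13 at 1 h, where the difference of -0.66 ± 0.222 was not called (adjusted p = 0.185). At 2 h it was at 50.3 and 56.4 CPM, beside 100 and 131 CPM in the shared controls, a fall of 1.12 ± 0.208 (adjusted p = 0.00168). At 4 h it was at 63.2 and 84.9 CPM, a difference of -0.63 ± 0.206 (adjusted p = 0.0982) that, of the alternatives run, was called without the low-count filter (0.0335). At 12 h it was at 31.8 and 43.6 CPM against 101 and 108 CPM, a fall of 1.51 ± 0.205 (adjusted p = 4.55e-06). The treated libraries lay below the controls at each of these times.

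The remaining calls came at 12 h. Tk1, at 93.8 and 77.6 CPM with DMSO, was at 31.3 and 27.2 CPM with dTAG-13, a fall of 1.53 ± 0.233 (adjusted p = 2.04e-05). At 1, 2 and 4 h its differences were 0.51 ± 0.305, 0.33 ± 0.234 and 0.18 ± 0.241, none of them called. Rrm2 was at 1102 and 1122 CPM against 583 and 632 CPM, a fall of 0.87 ± 0.148 (adjusted p = 7.71e-05), after differences between 0.02 and 0.19 at the earlier times. Both genes were thus well below their controls at 12 h, with no overlap. Dhodh was at 119 and 102 CPM against 55.4 and 43.6 CPM, a fall of 1.13 ± 0.230 (adjusted p = 5.45e-04). Cad rose from 35.1 and 45.1 CPM to 72.5 and 76.0 CPM, by 0.88 ± 0.210 (adjusted p = 0.00251), a call lost without DMSO replicate 1 (0.0501). Dut (-0.33 ± 0.148), Rrm1 (-0.25 ± 0.169) and Ctps (-0.29 ± 0.185) were not called at 12 h, although their treated libraries lay below the controls.

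**Figure D3:**
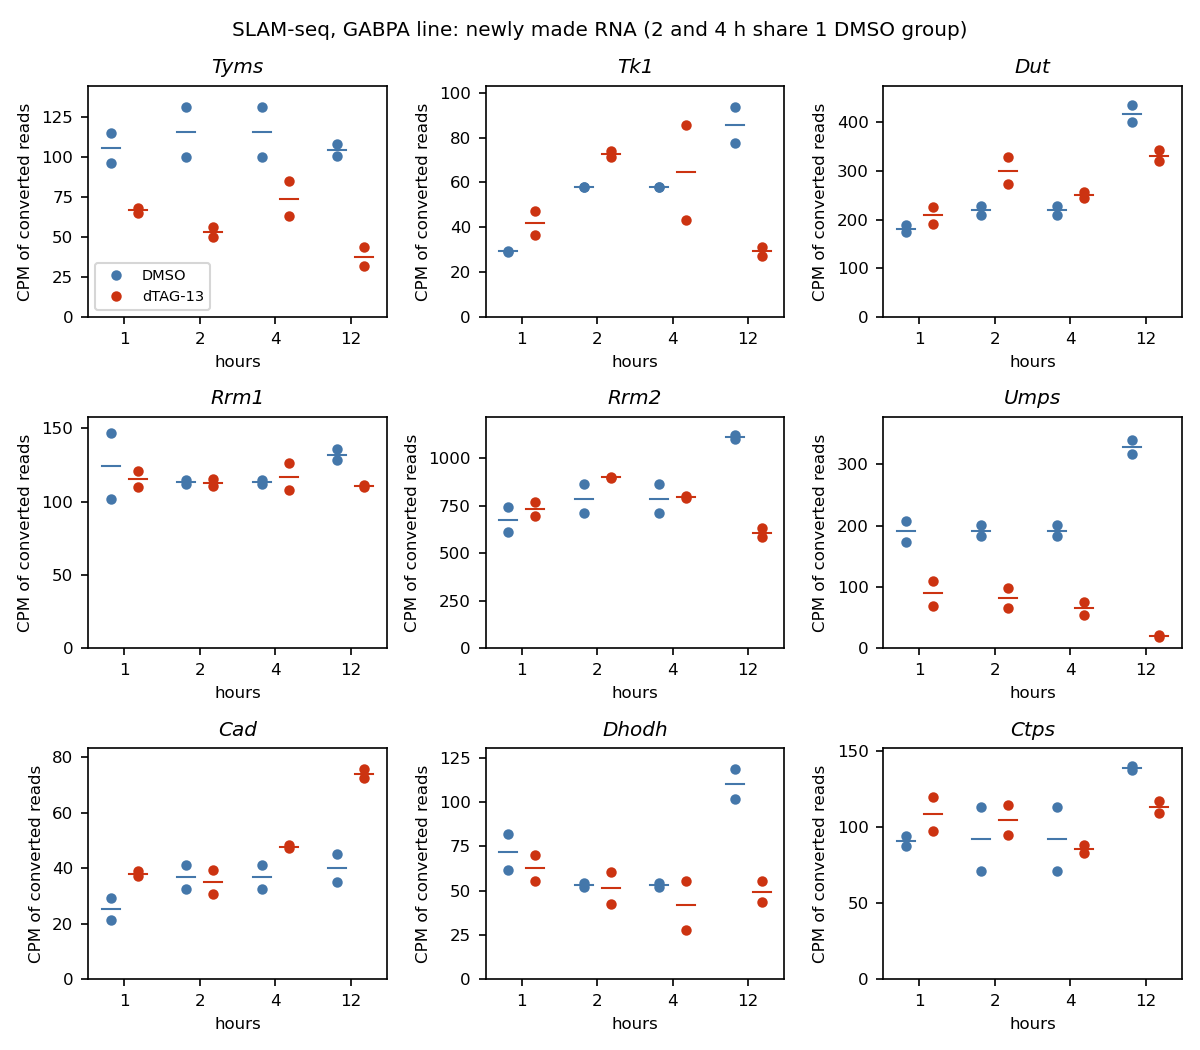
CPM of converted reads (y axis, from 0) in the GABPA line at 1, 2, 4 and 12 h (x axis, categories), with 1 point per library, DMSO in blue, dTAG-13 in red and short lines for group means. Umps and Tyms are below their controls at every time point, and Tk1, Rrm2 and Dhodh lie below theirs, without overlap, only at 12 h. The order of Umps and Tyms in time was not tested.

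The response at 12 h differed from that at 1 h for 3 of the 9 genes, all lower, where 6.84% of all genes were called (4.7% lower and 2.14% higher). The converted share was 5.06% to 6.08% in the 1 h libraries and 12.1% to 14.1% in those of 12 h. As the length of labelling is not given, the 2 responses may not cover the same span of synthesis. Umps differed by -2.91 ± 0.322 (adjusted p = 7.77e-06), Tk1 by -2.04 ± 0.383 (0.00207) and Rrm2 by -0.99 ± 0.211 (0.00576). Tyms (-0.84 ± 0.303, adjusted p = 0.0946) and Dhodh (-0.95 ± 0.354, 0.108) were not called. None of the 9 was called higher, by edgeR or DESeq2, or at an unadjusted p under 0.05. Between 4 h and 2 h of dTAG-13 0 of the 9 genes were called by edgeR and 0 by DESeq2, with 1 at an unadjusted p under 0.05, and 0% of all genes were called. The largest of these differences were those of Tyms (0.49 ± 0.222) and Cad (0.45 ± 0.245).

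The converted share of a gene's own reads does not depend on the library total. It is given with 95% Wilson intervals, which cover counting error within a library only and not the spread between libraries. These reads carry no molecular identifiers, so repeated copies of a molecule cannot be told apart and the intervals may be too narrow. For Umps it was 4.66% (4.06 to 5.34) and 4.25% (3.70 to 4.87) with DMSO at 1 h, and 1.82% (1.45 to 2.27) and 2.40% (1.98 to 2.89) with dTAG-13. In the shared DMSO group it was 16.1% (14.6 to 17.8) in one library and 394 of 2814 reads (12.8% to 15.3%) in the other, beside 7.95% and 7.49% at 2 h and 9.39% and 9.67% at 4 h. At 12 h it was 17.9% and 18.1% with DMSO and 15.7% and 15.6% with dTAG-13, where 581 and 199 Umps reads were left and the intervals were wide (12.9 to 18.8 and 11.2 to 21.3). The share of new Umps reads was thus well below its controls early and near them at 12 h, when both converted and all reads were low.

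For Tyms the share was 4.32% and 5.67% against 3.48% and 3.00% at 1 h, and 11.9% and 13.7% against 5.69% and 6.41% at 2 h. At 4 h it was 8.09% and 10.1%. At 12 h the order was turned, with 11.2% and 13.4% in DMSO libraries and 18.7% and 20.2% in dTAG-13 libraries. The share of Rrm2 was the highest of the 9 genes in every library except 1 h dTAG replicate 2, where Ctps stood higher. At 12 h it was also higher with dTAG-13, with 25.9% and 26.3% against 31.7% and 32.8%. So were the 12 h shares of Rrm1 (9.30% and 8.87% against 12.7% and 13.9%) and Ctps (15.2% and 15.7% against 20.0% and 23.3%). Dut was at 12.8% (12.1 to 13.6) and 12.6% (11.9 to 13.4) with DMSO. With dTAG-13 it was at 14.1% (13.4 to 14.8) and 13.5% (12.5 to 14.6), with overlapping intervals. The overall converted share of these libraries was 14.1% and 13.99% with DMSO and 13.8% and 12.1% with dTAG-13. Cad had a low share throughout, from 1.12% to 7.79%.

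**Figure D4:**
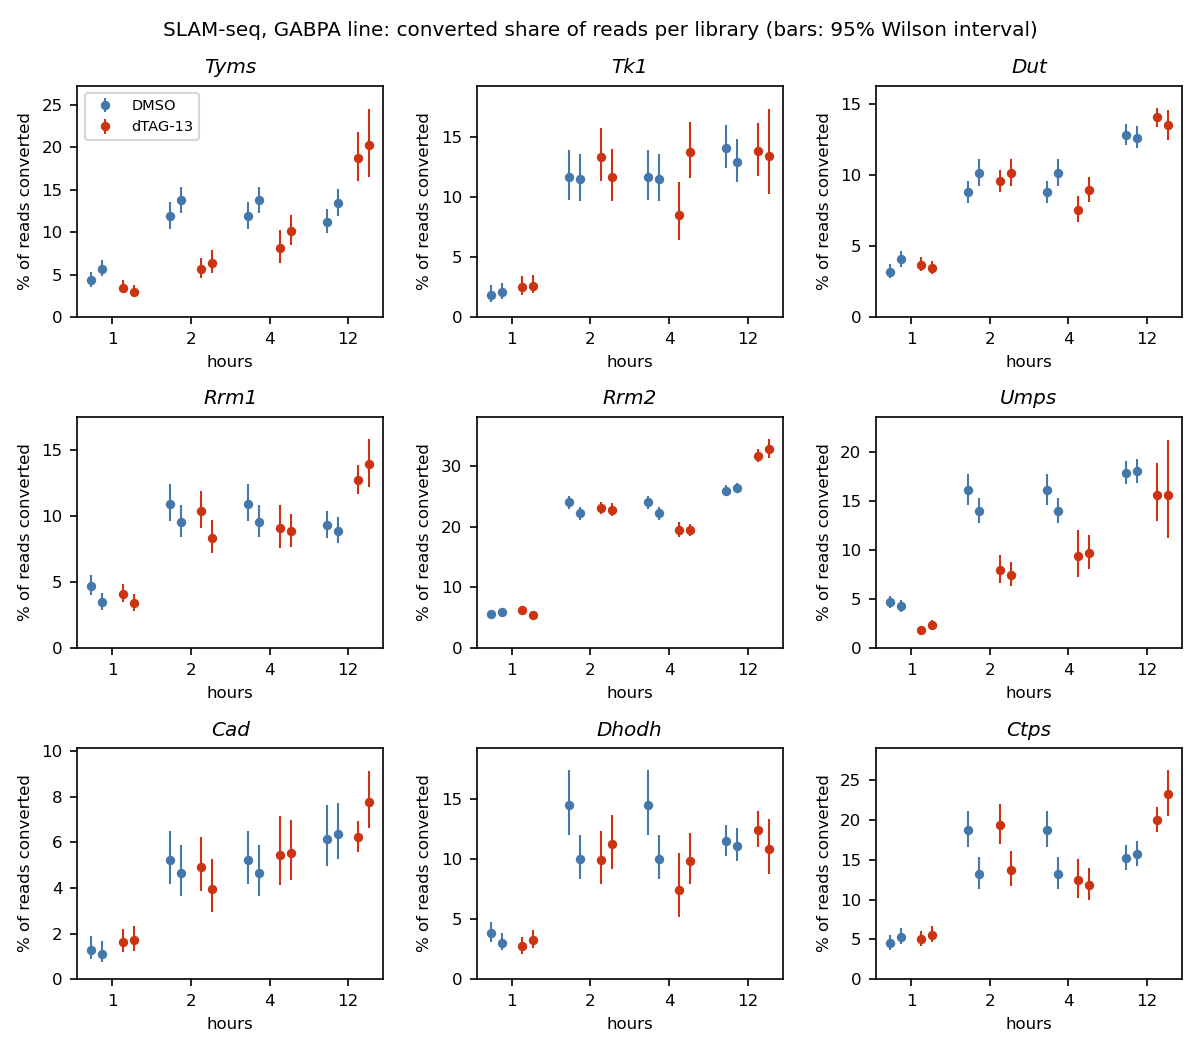
Converted reads as a percentage of the reads of each gene (y axis, from 0) at 1, 2, 4 and 12 h (x axis, categories) in the GABPA line, 1 point per library with its 95% Wilson interval, DMSO in blue and dTAG-13 in red, and the 2 h and 4 h DMSO points being the same libraries. Umps and Tyms are below their controls at 1, 2 and 4 h, and Tyms, Dut, Rrm1, Rrm2 and Ctps are above them at 12 h. For Dut the intervals overlap.

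All reads of the same SLAM-seq libraries trace the polyadenylated pool. Control levels differed between time points: the 9 genes summed to 1193 and 1243 CPM in the shared DMSO group, 2052 and 1843 CPM at 1 h and 2212 and 2103 CPM at 12 h, so only comparisons within a time point are made. At 1 h and at 2 h 0 of the 9 genes were called by edgeR, 0 by DESeq2 and 0 at an unadjusted p under 0.05, where 0.00371% and 0.215% of 26957 genes were called. At 4 h Umps fell (118 and 160 CPM against 48.5 and 72.9 CPM, -1.19 ± 0.242, adjusted p = 0.0125), where 2.13% of genes were called (2.1% lower and 0.0334% higher). That call was lost in a fit of those libraries alone (adjusted p = 0.0576) and without DMSO replicate 2 (0.132) or dTAG replicate 1 (0.237). For Umps the pool was thus called lower later than the converted reads were, in separate fits, while a test of that difference in time was not run.

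At 12 h 8 of the 9 genes fell in all reads and 1 rose, where 57.4% of genes were called (27.6% lower and 29.8% higher). The median of the 9 was -1.53, beside 0.14 for all genes, a median that was 0.55 without the low-count filter. Umps fell from 279 and 254 CPM to 17.0 and 12.0 CPM (-4.19 ± 0.272), Tyms from 132 and 117 CPM to 20.7 and 23.0 CPM (-2.52 ± 0.149), and Tk1 from 97.5 and 86.4 CPM to 27.5 and 21.5 CPM (-1.90 ± 0.171). Rrm1 and Ctps, which were not called in RNA-seq, fell here, Rrm1 with 214 and 209 CPM in controls against 106 and 83.9 CPM (-1.15 ± 0.170, adjusted p = 5.23e-05) and Ctps with 133 and 128 CPM against 71.1 and 50.0 CPM (-1.11 ± 0.164, adjusted p = 5.43e-05). Rrm2 (-1.53 ± 0.142), Dhodh (-1.55 ± 0.239) and Dut (-0.80 ± 0.163) fell as well, Dut not with the stricter filter (adjusted p = 0.0650). Cad was at 83.6 and 102 CPM against 141 and 104 CPM, with the lower treated library close to a control. Its rise of 0.40 ± 0.155 (adjusted p = 0.0364) was lost in DESeq2 (0.0878), with DESeq2 size factors (0.0802), without the low-count filter (0.135), in a fit of those libraries alone (0.0920), and without DMSO replicate 1 (0.337), DMSO replicate 2 (0.0564) or dTAG replicate 1 (0.671).

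The 12 h dTAG-13 libraries of SLAM-seq differed from their controls in composition. Reads were found in 43988 and 43084 genes there, beside 33774 to 39162 genes in the other 12 libraries. In the treated libraries the fibroblast markers summed to 8.80 and 13.5 CPM against 3.93 and 3.52 CPM with DMSO. Of these, 4 of 8 tested were higher, where 29.8% of all genes were called higher. The lineage markers summed to 11.1 and 12.7 CPM against 7.67 and 9.45 CPM, and the stem cell markers to 6364 and 6330 CPM against 9216 and 8846 CPM. No fibroblast or lineage marker was listed at 0 in the treated libraries. The same held at 4 h of dTAG-13, where lineage markers summed to 15.0 and 12.0 CPM and fibroblast markers to 10.5 and 6.84 CPM. It also held in replicate 1 of the shared DMSO group and of 2 h dTAG-13. In RNA-seq of the same line at 12 h the stem cell markers summed to 8731 and 9114 CPM with dTAG-13 and 8546 and 8602 CPM with DMSO. Of the 9 fibroblast markers there, 4 were at 0 in each DMSO library and 3 in each dTAG-13 library, and the rest summed to 9.42 and 6.90 CPM with dTAG-13 and 7.43 and 6.72 CPM with DMSO. The part of these differences in the result was not tested, and as both libraries of the group share them it cannot be told apart from the treatment in SLAM-seq.

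**Figure D5:**
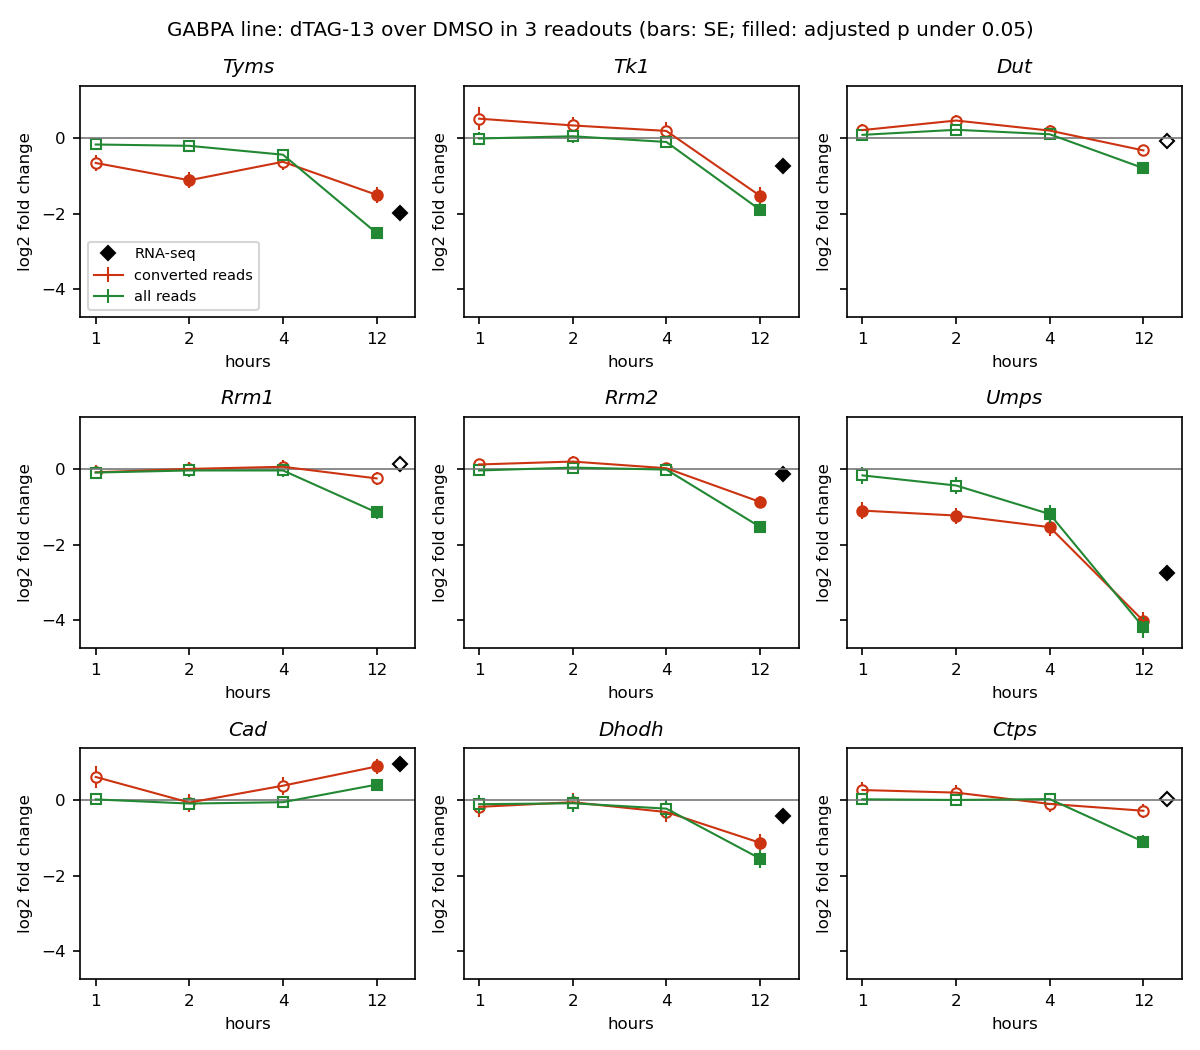
Log2 fold change, dTAG-13 over DMSO (y axis), in the GABPA line by hours of treatment (x axis, categories) for converted reads (red circles), all reads (green squares) and RNA-seq at 12 h (black diamonds), with bars for the SE and filled symbols for an adjusted p under 0.05. Umps is called lower from 1 h in converted reads and from 4 h in all reads, a difference in time that was not tested. At 12 h all reads of every gene lie lower than RNA-seq.

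Direction at 12 h was the same in the 3 readouts for Umps, Tyms, Tk1, Dhodh, Rrm2 and Cad, each called in all of them. Less secure, as given above, were the Rrm2 call in RNA-seq and the Cad calls in converted and all reads, which were lost under some alternatives. The size differed. Umps changed by -2.74 in RNA-seq, -4.02 in converted reads and -4.19 in all reads. Rrm2 changed by -0.15 in RNA-seq, -0.87 in converted reads and -1.53 in all reads. The assays used different library preparations and were fitted separately, so the difference between them was not tested.

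Genes around the members gave a mixed picture in the GABPA line at 12 h. Of 45 genes of DNA replication and G1/S, 33 fell and 1, Pole, rose in RNA-seq, with a list median of -0.33 beside 0.06 for all genes. Of all genes, 21.9% were called lower and 24.5% higher. Rfc3 (-2.31 ± 0.098) and Rfc2 (-1.99 ± 0.073), subunits of the clamp loader, fell most, followed by the primase subunit Prim2 (-1.84 ± 0.091) and Gins4 of the replicative helicase (-1.36 ± 0.069). In converted reads 2 of the 45 fell at 1 h, Gins4 (-1.24 ± 0.243) and Rfc3 (-1.11 ± 0.223), and 33 at 12 h. The shares of all genes called lower were 1.72% and 18.3%. In the GABPB1 and GABPB1/B2 lines 7 and 10 of the 45 fell, where 5.46% and 9.26% of all genes were called lower. DMSO libraries of those lines were lower in 28 and 31 of the 45 genes and higher in 6 and 4. Among all genes, 31.5% and 30.4% were lower in these contrasts with the GABPA line, and 29.7% and 31.6% higher. The summed level of the list was 10430 and 10560 CPM with DMSO and 8461 and 8484 CPM with dTAG-13 in the GABPA line. It moved in the same direction as Tyms, Tk1 and Umps, and its part in their falls was not tested.

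Of 32 tested genes of nucleotide kinases, salvage and pool control, 13 fell and 8 rose, with a median of -0.01. Of all genes, 21.9% were called lower and 24.5% higher. Itpa, which removes inosine nucleotides from the pool, fell by 3.53 ± 0.104 on the log2 scale, Cmpk1, the UMP and CMP kinase that follows UMPS, by 1.99 ± 0.120, the mitochondrial thymidine kinase Tk2 by 1.72 ± 0.133, and Nudt1, which clears oxidised purine nucleotides, by 1.65 ± 0.101. Ak1 (1.60 ± 0.073), Nme4 (0.77 ± 0.082), Nme3 (0.58 ± 0.096) and Rrm2b rose. Rrm2b, the small subunit of ribonucleotide reductase used outside S phase, was at 6.36 and 6.77 CPM with DMSO and 8.24 and 13.3 CPM with dTAG-13, a rise of 0.71 ± 0.175 (adjusted p = 0.00294) with a wide gap between the treated libraries. Samhd1, which degrades deoxynucleotides, rose by 0.18 ± 0.064 (adjusted p = 0.0328), and the second CTP synthase Ctps2 differed by 0.05 ± 0.089 (0.656). Itpa and Cmpk1 also fell in the GABPB1 line (-0.84 ± 0.083 and -0.50 ± 0.104) and in the GABPB1/B2 line (-2.22 ± 0.101 and -0.87 ± 0.113). In converted reads Itpa fell at 1 h by 1.42 ± 0.373 (adjusted p = 0.0490) and Ak1 rose by 1.12 ± 0.287 (0.0418). They were the 2 genes of this list called then, where 1.78% of all genes were called.

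Of 16 folate one-carbon genes, 5 fell and 4 rose at 12 h in RNA-seq, with a median of -0.13. For this list and the purine list below, the shares of all genes were 21.9% lower and 24.5% higher. Shmt1, the cytosolic serine hydroxymethyltransferase that feeds thymidylate synthesis, fell by 1.12 ± 0.059, and also in the GABPB1 (-0.42 ± 0.056) and GABPB1/B2 (-0.57 ± 0.058) lines. Aldh1l1, which oxidises formyl folate, rose by 1.41 ± 0.093. Of 15 purine synthesis genes, 6 fell and 3 rose, with a median of -0.12: Adsl, adenylosuccinate lyase, fell by 1.86 ± 0.070, Gmps by 0.57 ± 0.077 and Ppat by 0.36 ± 0.062, while Prps2 (1.05 ± 0.107) and Adssl1 (1.05 ± 0.216) rose. In converted reads at 1 h Adsl differed by -0.92 ± 0.250, which was not called (adjusted p = 0.0594).

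Over the 12 RNA-seq libraries, after subtraction of the mean of each line, log2 CPM of Tyms and Umps ran together at a Pearson correlation of 0.993, Tk1 and Umps at 0.985, and Cad and Umps at -0.963. Ctps (-0.306) and Dut (0.529) followed Umps less. Among 9157 other genes, the closest in pattern to Umps were Ppp2cb (0.999) and Rfc3 (0.999), to Tyms Cap1 (0.999) and Ubl4a (0.998), to Tk1 Spag7 (0.994) and Irak1 (0.993), and to Cad Soga1 (0.996) and Hgsnat (0.992). For genes that changed little the best matches were lower, as for Dut with Ooep (0.903) and Tmem216 (0.847) and for Ctps with Ube2q2 (0.916) and Rnf17 (0.900). Rrm1 was most like Acad9 (0.968) and Kmt2e (0.967), Rrm2 most like Wdr37 (0.968) and Ghitm (0.965), and Dhodh most like Rnaseh1 (0.955) and Timm8b (0.931). These values describe 12 libraries that share treatments, lines and sequencing depth.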

How the data were processed

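Of 92 samples, 26 were analysed and 66, of other assays, were not used here. Expected counts and TPM of the RNA-seq tables are as deposited by the authors, in the format of RSEM; the submitters' processing notes list Trim Galore 0.6.7, cutadapt 3.5, STAR 2.7.11a and RSEM 1.3.1 and the build mm39. Counts of all reads and of T-to-C converted reads per gene interval were deposited for SLAM-seq, per the file headers from slamdunk 0.4.3. Labelling time, strand handling and the treatment of reads shared by genes are not given in the sources used here. Symbols came from an Ensembl table (52029 of 56953 IDs matched).

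Expected counts were rounded. Each readout was fitted once with edgeR 4.0.16 in R 4.3.3: a mean per group, TMM, filterByExpr (minimum count 10, total 15), the quasi-likelihood test and Benjamini-Hochberg adjustment over all genes tested, with calls at 0.05. CPM values use TMM library sizes. The SE is the absolute log2 change over the square root of F. The common biological coefficient of variation was 0.0608 in RNA-seq, 0.143 in converted and 0.159 in all reads. The 2 libraries of each group differed by more than counting noise (chi-square over degrees of freedom, 1.88 to 26.9). The scripts were tested on simulated data. Log2 CPM for correlations used a prior count of 2 and genes with an average of at least 3.

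All 9 genes are named in every comparison. Of each other list, up to 4 called genes with the largest change in each direction could be named, plus Rrm2b, Samhd1 and Ctps2; 1 further gene of that rule is not reported here. Members and lists were chosen with earlier results of these data known. Alternatives were DESeq2 1.42.0, its size factors in edgeR, no filter, an average log2 CPM of at least 3, only the libraries compared, a replicate block, and leaving out each library.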

Additional observations from a re-analysis of the deposited data

Results flagged for a closer look

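Several responses differed between lines or between times by a test of the difference itself (edgeR, adjusted p under 0.05). Between the GABPA line and the GABPB1 line the response differed by -1.41 for Tyms, -0.60 for Tk1, -2.24 for Umps, 0.82 for Cad and -0.36 for Dhodh on the log2 scale. Between the GABPA line and the GABPB1/B2 line it differed by -1.09 for Tyms, -0.52 for Tk1, -1.65 for Umps, 0.74 for Cad and -0.46 for Dhodh. In converted reads the 12 h response differed from the 1 h response by -2.04 for Tk1, -0.99 for Rrm2 and -2.91 for Umps. As said above, these 2 responses may not cover the same span of synthesis. Groups of 2 libraries are too small for a check of single outlying libraries.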

How the results depend on the processing

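Of 1638 values of single genes under the alternatives, 1586 kept their side of the threshold, 44 lost a call and 8 gained one. No value called in either fit turned its direction. Changes of sign between fits that were both uncalled were not counted. Of the members called higher in RNA-seq, the count was 2 in the GABPA line with genes under an average log2 CPM of 3 left out, 1 in the GABPB1 line with only the libraries compared, and 1 in the GABPB1/B2 line by DESeq2 or with no low-count filter. In converted reads at 4 h 2 were called lower with no low-count filter. In all reads at 4 h 0 were called lower with only the libraries compared, and at 12 h 0 were called higher by DESeq2, with DESeq2 size factors, with no filter or with only the libraries compared. Leaving out 1 library gave 0 to 1 called higher in the GABPB1/B2 line, 0 to 1 called lower in converted reads at 1 h and 0 to 1 called higher at 12 h, and 0 to 1 called lower at 4 h and 0 to 1 called higher at 12 h in all reads. Where 1 library of a group was left, it was assumed to vary like the other groups. The causes were not tested.

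Replicate numbers are shared between groups, but the labels do not tie a number to a batch or a day. Same-numbered deviations correlated at -0.114 to 0.033 in RNA-seq, at -0.003 to 0.294 in converted reads and at -0.048 to 0.397 in all reads. With a replicate block the call of Ctps between DMSO libraries of the GABPB1 and GABPA lines was lost (adjusted p = 0.0534), so that 7 in place of 8 members were lower there, and no other call of a member changed. With 2 libraries per group, and 936622 to 1141614 converted reads per library at 1 h, small changes at that time were not detectable at this depth.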
